A study of Mus musculus with 8 samples.

Results

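The tumour necrosis factor (TNF) system of peripheral blood was followed through 9 genes, taken as the rows of the count table whose symbol was Tnf, Lta, Ltb, Tnfrsf1a, Tnfrsf1b, Ltbr, Adam17, Traf1 or Traf2. They are 9 of the 21878 gene symbols in the table, and all 9 were among the 11718 genes with enough reads to be tested. RNA was sequenced from the blood of 8 female wild-type C57BL/6 mice aged 6 to 8 weeks. The stress group (n = 4) was held for 6 hours in a ventilated conical tube, and the control group (n = 4) stayed in its home cage. Neither group had food or water over that time, so a fast was shared by both. The comparison asks how acute restraint changes gene expression in circulating cells.

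TNF and the lymphotoxins are trimeric ligands that leukocytes display on their surface or release. TNF binds TNF receptor 1 (Tnfrsf1a), which most nucleated cells carry, and TNF receptor 2 (Tnfrsf1b), which is found mainly on immune cells, while the complex of lymphotoxin alpha (Lta) and lymphotoxin beta (Ltb) binds the lymphotoxin beta receptor (Ltbr), which myeloid and stromal cells carry and lymphocytes largely lack. The metalloprotease ADAM17 cuts membrane TNF and both TNF receptors free from the cell, and the adaptors TRAF2 and TRAF1 link the receptors to NF-κB signalling.

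The 3 ligand genes sit side by side on chromosome 17 (GRCm38, GENCODE M21 annotation), Ltb at 35194439 to 35196320, Tnf at 35199381 to 35202007 and Lta at 35203165 to 35205351, with 3060 bases between Ltb and Tnf and 1157 between Tnf and Lta. The 2 receptor genes that rose are neighbours as well: Ltbr (chromosome 6, 125306571 to 125313885) and Tnfrsf1a (125349362 to 125362484) are separated by 35476 bases that hold only Scnn1a, an epithelial sodium channel subunit. Scnn1a, named after its value was seen, was also higher in stress (log2 fold change 0.84, edgeR adjusted p = 0.042). At an adjusted p below 0.05, 10.4% of all tested genes were higher. Whether neighbouring genes moved together was not tested. The promoters of these 2 receptors are printed because they are the genes that moved, and that of Ltb because it was the only member window with a match to a searched motif. Each is RefSeq sequence (GRCm38.p6) upstream of the gene's start, 5′ to 3′ on the gene's strand, without the bases that GENCODE M21 counts as exon. Capitals mark the match. The 250 bases before the start were searched on both strands for an NF-κB motif (GGG and TTTCC with 2 bases between them), a glucocorticoid receptor motif (GNACA and TGTNC with 3 bases between them), a PU.1 motif (GAGGAAGT), an AP-1 motif (TGANTCA) and a C/EBP motif (TTGCNNAA). Of the 9 members, Ltb alone held a match, to the NF-κB motif, 87 to 78 bases before its RefSeq start. The last 68 bases before that start are exon in GENCODE M21, so the printed Ltb stretch ends short of it. The NF-κB motif stands in 1.41% of all 32841 promoter windows. The other motifs stand in 0.387%, 2.44%, 6.75% and 9.57% of all windows in the order named, and in 0 of the 9 member windows. The Tnfrsf1a stretch (chr6:125349509-125349722, plus strand) lies within the longest GENCODE model of the gene, that of Ltbr is chr6:125313886-125314135 (minus strand), and that of Ltb is chr17:35194257-35194438 (plus strand).
Tnfrsf1a: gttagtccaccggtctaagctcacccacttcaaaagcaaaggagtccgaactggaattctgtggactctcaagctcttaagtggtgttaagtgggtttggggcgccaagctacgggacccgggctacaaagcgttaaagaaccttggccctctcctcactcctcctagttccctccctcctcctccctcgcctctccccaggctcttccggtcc
Ltbr: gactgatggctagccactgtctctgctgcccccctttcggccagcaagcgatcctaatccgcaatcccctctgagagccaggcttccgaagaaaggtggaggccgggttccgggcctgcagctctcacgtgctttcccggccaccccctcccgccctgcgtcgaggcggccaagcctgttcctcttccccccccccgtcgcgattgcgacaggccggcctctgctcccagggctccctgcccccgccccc
Ltb: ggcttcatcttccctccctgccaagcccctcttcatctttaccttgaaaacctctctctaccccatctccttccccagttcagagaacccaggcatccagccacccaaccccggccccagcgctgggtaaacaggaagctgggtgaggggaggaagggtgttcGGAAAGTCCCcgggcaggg

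The libraries held 31471145 to 39014775 counts in the control group and 25978683 to 29655725 in the stress group, and haemoglobin transcripts took 51.9% to 63.8% and 61.2% to 75.5% of them. Levels are given as CPM, the reads of a gene as a rate of the library size corrected by TMM, a scaling that takes most genes as unchanged. The typical (median) gene stood at a log2 fold change of -0.02 on this scale and at -0.82 by total counts alone, so a change here is a change relative to the typical gene. The blood was checked against markers of its cells. The summed neutrophil markers ran from 193 to 382 CPM in the control group and from 601 to 888 CPM in the stress group, with 12 of 12 tested markers higher and 9 of them past an adjusted p of 0.05. Camp, the neutrophil marker not tested, was at 0 counts in some samples. The classical monocyte markers ran from 341 to 451 and from 697 to 1185 CPM (7 of 7 higher, 6 past), and the B cell markers from 1122 to 1395 and from 767 to 1005 CPM (10 of 10 lower, 5 past). The T cell markers, at 406 to 446 and 368 to 485 CPM, and the NK cell markers, at 63.9 to 107 and 57.1 to 127 CPM, overlapped between groups. The platelet markers ran from 1389 to 2043 and from 3070 to 3735 CPM (8 of 8 higher, all past). From whole-blood RNA alone, fewer cells of a type and less RNA per cell cannot be told apart. Flow cytometry in the study, after the same length of restraint, counted more neutrophils in blood. It counted fewer monocytes, and fewer lymphocytes of the T, B and NK types. The higher classical monocyte markers and the overlapping T and NK cell markers therefore cannot be read as cell numbers. Why these markers differ from the counts was not tested.

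Of the 9 members, 2 passed a Benjamini-Hochberg adjusted p of 0.05 in the quasi-likelihood test of edgeR, both higher in the stress group, and 0 were lower. By that rule 10.4% of all tested genes were higher and 3.69% lower, 14.1% in either direction. The study's thresholds (a log2 change of more than 1 either way, with adjusted p under 0.01) called 1 member higher, Ltbr, and 0 lower, against 1.69% and 0.0171% of all tested genes, 1.71% in either direction. At an unadjusted p under 0.05, 2 members were higher and 1 was lower, where 18.2% and 13% of all genes were. DESeq2 and limma-voom likewise gave 2 members higher and 0 lower at an adjusted p of 0.05. The median log2 fold change of the members was -0.06.

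**Figure D1:**
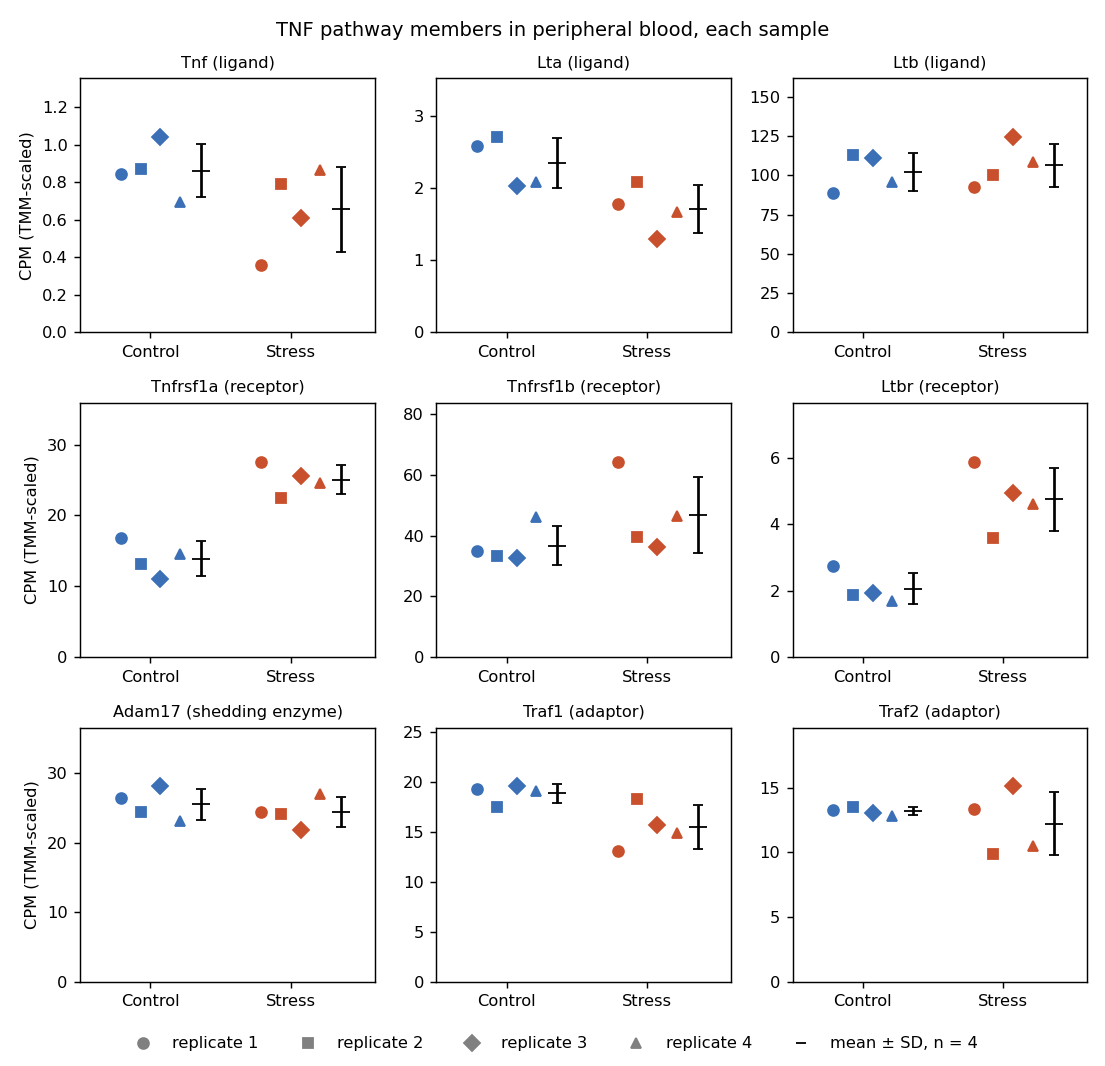
Level of each of the 9 genes in each sample, in TMM-scaled CPM on axes that start at 0, with marker shapes for the replicates and the mean ± SD (n = 4) beside each group. The stress samples of Tnfrsf1a and Ltbr lie above every control sample, and the groups overlap for the other 7 genes.

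On the TMM scale both receptors that rose were higher in every stressed mouse than in any control mouse. Tnfrsf1a, the receptor with a death domain, measured 16.8, 13.1, 11.0 and 14.6 CPM in control replicates 1 to 4 and 27.6, 22.5, 25.6 and 24.6 CPM in stress replicates 1 to 4. The lowest stress value lay above the highest control value, an order that 11.1% of all tested genes showed in this direction and 9.87% in the other. The control mean was 13.9 ± 2.46 CPM and the stress mean 25.1 ± 2.11 CPM (± SD of 4 samples), a 1.81-fold rise (log2 fold change 0.86, standard error 0.13, edgeR adjusted p = 0.00153). With 1 sample left out in turn the adjusted p stayed between 0.00236 and 0.00991.

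Ltbr showed the larger change of the pair. It measured 2.74, 1.88, 1.92 and 1.67 CPM in the control replicates and 5.89, 3.57, 4.93 and 4.61 CPM in the stress replicates, again without overlap. These are low levels, resting on 53 to 144 reads per library. The control mean was 2.05 ± 0.473 CPM and the stress mean 4.75 ± 0.955 CPM (± SD of 4 samples), a 2.31-fold rise (log2 fold change 1.21, standard error 0.21, edgeR adjusted p = 0.00296). Leaving out control replicate 2, control replicate 3 or stress replicate 1 raised its adjusted p to 0.0163, 0.0123 and 0.0112, so that it no longer met the study's threshold of 0.01. By total counts alone Tnfrsf1a and Ltbr changed by 0.10 and 0.43 on the log2 scale, neither past the test (edgeR adjusted p = 0.811 and 0.32), while the typical gene stood at -0.82, so that they lay 0.92 and 1.25 above it. On that scale the stress and control samples of both genes overlapped. Neutrophil and classical monocyte markers rose in the same libraries, all 4 stress sums above the control sums for both lists, and their part in the rise of these receptors was not tested.

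Tnfrsf1b, the receptor of lymphocytes and myeloid cells, gave no such separation. Its values were 35.1, 33.1, 32.6 and 46.0 CPM in the control replicates and 64.3, 39.5, 36.4 and 46.6 CPM in the stress replicates. Stress replicate 1 was the highest of the 8, while stress replicates 2 and 3 lay below control replicate 4 and stress replicate 4 just above it. The means were 36.7 ± 6.31 CPM (control) and 46.7 ± 12.5 CPM (stress, ± SD of 4 samples), with a log2 fold change of 0.35 and a 95% interval from -0.02 to 0.72 (edgeR adjusted p = 0.185). With 1 sample left out its log2 fold change ran from 0.18 (without stress replicate 1) to 0.50 (without control replicate 4). The edgeR adjusted p of these fits ran from 0.0723 to 0.433. By total counts alone the log2 fold change was -0.37.

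**Figure D2:**
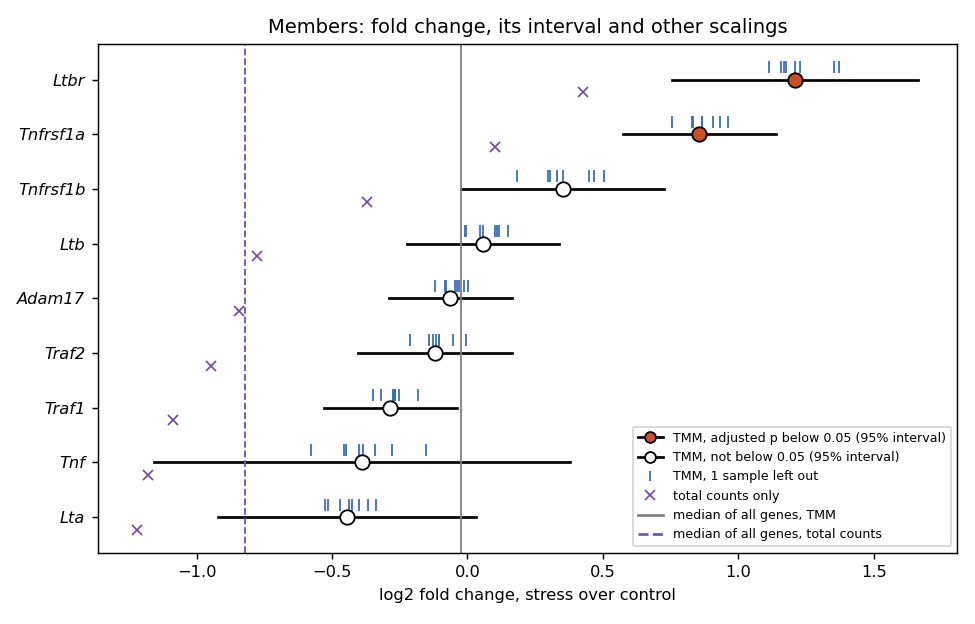
Log2 fold change of stress over control for the 9 genes, with the 95% interval on the TMM scale (circles, filled where the adjusted p is below 0.05), the 8 values with 1 sample left out (ticks) and the value by total counts alone (crosses). The vertical lines mark the median of all tested genes on each scale, -0.02 and -0.82; Ltbr and Tnfrsf1a lie to the right of both lines under both scalings.

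None of the 3 ligand genes passed the test in either direction. Tnf was the scarcest of the members, with 31, 45, 72 and 22 reads in the control replicates and 8, 17, 8 and 27 in the stress replicates. Scaled to library size these are 0.842, 0.871, 1.04 and 0.694 CPM against 0.357, 0.788, 0.607 and 0.864 CPM, so the groups overlapped. Its log2 fold change was -0.39 with a 95% interval from -1.16 to 0.38 (edgeR adjusted p = 0.489), which covers both a fall of over 2-fold and a modest rise. With 1 sample left out the log2 fold change ran from -0.58 (without stress replicate 4) to -0.15 (without stress replicate 1). In serum, the study's ELISA found no significant change of TNF-α protein after restraint. That is a different measure from RNA of blood cells.

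Lta lay lower in most stressed mice. The control replicates gave 2.58, 2.71, 2.02 and 2.08 CPM and the stress replicates 1.78, 2.09, 1.29 and 1.66 CPM. Stress replicate 2 alone reached into the control range. The log2 fold change was -0.44 (95% interval from -0.92 to 0.03, edgeR adjusted p = 0.189).

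Ltb, the membrane anchor of the lymphotoxin complex, was the most abundant member and stayed level with the typical gene. It measured 88.8, 113, 111 and 95.4 CPM in the control replicates and 92.6, 99.9, 124 and 108 CPM in the stress replicates. The groups were interleaved, with means of 102 ± 11.9 and 106 ± 13.7 CPM (± SD of 4 samples). The log2 fold change was 0.06, with a 95% interval from -0.22 to 0.34 (edgeR adjusted p = 0.807). By total counts alone Tnf, Lta and Ltb had log2 fold changes of -1.18, -1.22 and -0.78, all past the test on that scale (edgeR adjusted p = 0.0484, 0.0154 and 0.032). Set against the typical gene at -0.82 these were differences of -0.36, -0.40 and 0.05.

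The shedding enzyme Adam17 ran from 23.05 to 28.1 CPM in the control group and from 21.8 to 27.0 CPM in the stress group. Its log2 fold change was -0.06 with a narrow 95% interval, from -0.29 to 0.16 (edgeR adjusted p = 0.726), and 0.00077 without stress replicate 3. The exons of Adam17 share 311 bases with those of Iah1 on the opposite strand. Whether the counting used strand is not given in the sources used here, so the reads of the overlap cannot be assigned (Iah1 log2 fold change 0.33, edgeR adjusted p = 0.115).

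Of the adaptors, Traf1, itself an NF-κB target gene, measured 19.3, 17.4, 19.5 and 19.1 CPM in the control replicates and 13.1, 18.3, 15.6 and 14.9 CPM in the stress replicates. Stress replicate 2 lay within the control range and the other 3 below it. Traf1 was the single member lower at an unadjusted p under 0.05 (log2 fold change -0.29, 95% interval from -0.53 to -0.04). It did not pass after adjustment (edgeR adjusted p = 0.109). With 1 sample left out its log2 fold change ran from -0.35 (without stress replicate 2) to -0.18 (without stress replicate 1), with an edgeR adjusted p of 0.0676 to 0.3. Traf2, the ubiquitin ligase adaptor of both TNF receptors, lay between 12.8 and 13.5 CPM in the control group and between 9.88 and 15.1 CPM in the stress group, with a log2 fold change of -0.12 (edgeR adjusted p = 0.57). The stress values of Traf2 were spread on both sides of the control values, and its log2 fold change ran from -0.21 without stress replicate 3 to -0.053 without stress replicate 4 and -0.0037 without stress replicate 2. By total counts alone Adam17, Traf1 and Traf2 had log2 fold changes of -0.84, -1.09 and -0.95, all past the test on that scale (edgeR adjusted p = 0.0367, 0.0136 and 0.021). So were 5811 of all 11718 tested genes, in the lower direction. Set against the typical gene at -0.82 these were differences of -0.02, -0.27 and -0.13.

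Levels were compared between genes per length, as TMM-scaled CPM per kb of annotated exon. That length joins the exons of all annotated transcripts of a gene, so it can exceed the length of the transcript expressed. In the control group the order was Ltb (67.4 ± 7.86 CPM per kb), Tnfrsf1b (9.61 ± 1.65), Tnfrsf1a (5.36 ± 0.948), Adam17 (3.56 ± 0.309), Traf2 (2.58 ± 0.0614), Traf1 (2.14 ± 0.108), Lta (1.70 ± 0.251), Ltbr (0.872 ± 0.201) and Tnf (0.526 ± 0.0867; SD, n = 4 throughout). No neighbours in this order overlapped over the 4 control samples. In the stress group Ltb (70.1 ± 9.02 CPM per kb) and Tnf (0.399 ± 0.138 CPM per kb) kept the ends of the order. Ltbr (2.02 ± 0.406 CPM per kb) stood above Traf1 and Lta there, but its samples overlapped those of both its neighbours, Traf2 and Traf1. Tnfrsf1a reached 9.68 ± 0.813 CPM per kb, and its range overlapped that of Tnfrsf1b (12.2 ± 3.28 CPM per kb) in the stress group.

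**Figure D3:**
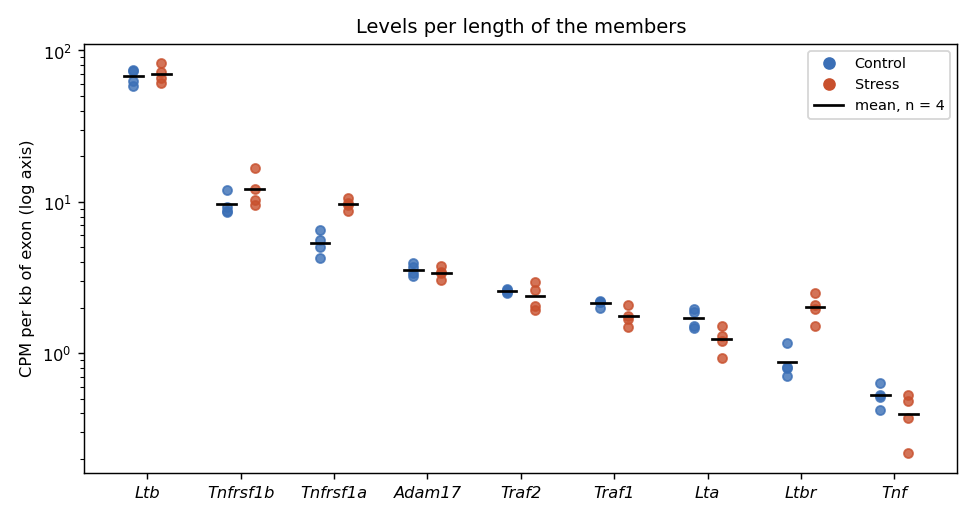
TMM-scaled CPM per kb of exon (log axis) of each gene in the 4 control and the 4 stress samples, ordered by the control mean, with bars at the means. Ltb lies near 70 CPM per kb in both groups and Tnf below 1, and the points of Ltbr and Tnfrsf1a move up between groups.

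Ratios of counts within a sample do not depend on how libraries are scaled. In the control group 32.4 to 60.3 reads of Ltb fell on each read of Ltbr, and in the stress group 15.7 to 28.0. This ligand to receptor ratio was thus lower by 1.16 on the log2 scale, without overlap (two-sided exact permutation test over 70 assignments, p = 0.0286, the smallest p possible, adjusted over 6 ratios 0.0429). Ltbr was already known to rise on the TMM scale and Ltb to stay level. This p-value therefore carries the rise of Ltbr and is not separate support for it. The ratio of Tnfrsf1b to Tnfrsf1a went from 2.65 to 1.82 (geometric means), with ranges of 2.08 to 3.15 and 1.42 to 2.33 that overlapped (exact permutation test, p = 0.0571, adjusted 0.0686). The ratio of Traf1 to Traf2 was 1.43 in control and 1.28 in stress (exact permutation test, p = 0.4, adjusted 0.4).

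Both TNF receptors were then set against myeloid markers, and Ltb against lymphocyte markers. Relative to the summed neutrophil and classical monocyte markers, which rose, Tnfrsf1a was lower in stress by 0.41 and Tnfrsf1b by 0.95 on the log2 scale, both without overlap (exact permutation test, p = 0.0286, adjusted 0.0429 each). The marker sums were already known to rise, so these p-values carry that rise and need not mean a fall of either receptor. On the TMM scale Tnfrsf1a rose by 0.86 and Ltbr, for which no such ratio was taken, by 1.21 on the log2 scale. The neutrophil and classical monocyte marker sums rose by 1.21 and 1.32, and their part in the receptor changes was not tested. Relative to the summed B and T cell markers, Ltb was higher in stress by 0.38 on the log2 scale, again without overlap (exact permutation test, p = 0.0286, adjusted 0.0429). In that sum the B cell part was already known to fall, so this p-value carries that fall and need not mean a rise of Ltb. On the TMM scale the log2 fold change of Ltb was 0.06 (edgeR adjusted p = 0.807). With 1 sample left out the exact p was 0.0571 for Ltb to Ltbr without any 1 of the stress samples, for Ltb to the lymphocyte markers without any 1 of the control samples, and for Tnfrsf1a to the myeloid markers without any 1 of the control samples or without stress replicate 4.

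**Figure D4:**
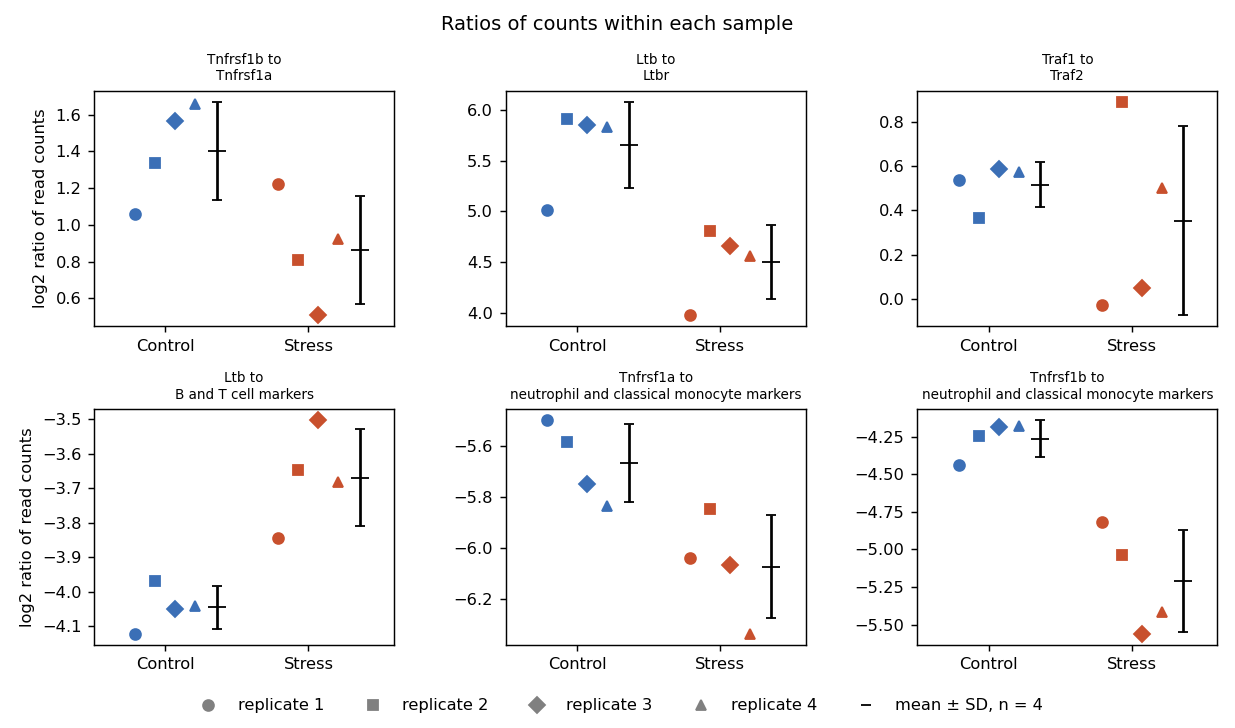
Log2 ratios of read counts within each sample for the 6 ratios, by group, with marker shapes for the replicates and the mean ± SD (n = 4). The groups do not overlap for Ltb to Ltbr, for Ltb to the B and T cell markers and for either TNF receptor to the myeloid markers, and they overlap for Tnfrsf1b to Tnfrsf1a and Traf1 to Traf2.

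For the most abundant member of each role, the genes with the most similar profile over the 8 samples were sought by the root mean square difference of centred log2 CPM. Nearest to Ltb were Snrpa (0.055 log2 units), Nckipsd (0.059) and Pex5 (0.059), where the median gene lay 0.32 away and Ltb itself varied by 0.16 around its mean. Among the nearest to Tnfrsf1b were Serpinb10 (0.10) and Asap2 (0.11), against a median of 0.42 and its own variation of 0.31. Nearest to Adam17 were Mtss1 (0.053), Rap1gds1 (0.056) and Chd4 (0.059), against a median of 0.29 and its own variation of 0.11. A flat gene has many flat neighbours on this measure.

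The wider pathway was read from 6 lists with 104 genes, of which 86 were tested. At an adjusted p below 0.05, 13 of the 86 were higher (15.1%) and 3 lower (3.49%), beside 10.4% and 3.69% of all tested genes (edgeR). Their median was -0.04 on the log2 scale, beside -0.02 for the typical gene. At the study's thresholds 2 of the 86 were called higher, Tnfsf14 and Timp3, and 0 lower, beside 1.69% and 0.0171% of all tested genes. DESeq2 and limma-voom called 0 lower as well. At an unadjusted p under 0.05, 16 were higher and 11 lower, beside 18.2% and 13% of all tested genes. The counts per list that follow use an adjusted p below 0.05, where the shares of all tested genes were 10.4% higher and 3.69% lower.

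Among the 15 other ligands of the TNF superfamily 8 were tested, and 2 were higher and 0 lower at an adjusted p below 0.05 (median log2 fold change 0.05). Tnfsf14, which encodes LIGHT, the second ligand of the lymphotoxin beta receptor, measured 7.47, 6.27, 4.39 and 7.35 CPM in the control replicates and 13.7, 12.9, 15.3 and 15.6 CPM in the stress replicates. It rose by 1.18 on the log2 scale (edgeR adjusted p = 0.00105), and its adjusted p was at most 0.00726 with any 1 sample left out. Tnfsf13b, which encodes the B cell survival factor BAFF, rose by 1.49 on the log2 scale, with means of 0.396 ± 0.202 CPM in control and 1.07 ± 0.304 CPM in stress (± SD of 4 samples, edgeR adjusted p = 0.0401). It rests on 13 to 43 reads per library and did not pass without control replicate 2 or 3 or stress replicate 2, 3 or 4 (adjusted p up to 0.119), nor with the replicate number as a block (0.0773).

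Of the 25 other TNF receptor superfamily genes 20 were tested, with 2 higher and 2 lower (median log2 fold change -0.14). Tnfrsf21 (death receptor 6) was higher by 0.97 and Relt by 0.53 on the log2 scale (edgeR adjusted p = 0.0107 and 0.0218). The B cell receptor for BAFF, Tnfrsf13c, and the LIGHT receptor of lymphocytes, Tnfrsf14, were lower, by log2 fold changes of -0.44 and -0.48 (adjusted p = 0.041 and 0.032). Tnfrsf14 lay between 15.3 and 15.8 CPM in the control group and between 9.26 and 14.5 CPM in the stress group. Of these 4, Tnfrsf21 alone passed with any 1 sample left out. Relt was lost without control replicate 1, 2 or 3 (adjusted p up to 0.0844), Tnfrsf13c without every sample but control replicate 4 or stress replicate 4 (up to 0.129), with limma-voom (0.0527) and under the replicate block (0.0926), and Tnfrsf14 without every sample but stress replicate 4 (up to 0.0941).

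The 27 genes of the receptor signalling complexes were all tested, with 2 higher and 0 lower (median log2 fold change -0.04). Birc2, the ubiquitin ligase cIAP1 that works with TRAF2, lay between 39.1 and 53.0 CPM in control samples and between 63.4 and 82.5 CPM in stress samples (log2 fold change 0.60, edgeR adjusted p = 0.00769). Otulin, which removes linear ubiquitin chains, rose by 0.44 on the log2 scale (adjusted p = 0.0169), and did not pass without control replicate 2 or 3 (0.0698 and 0.059). Tradd and Ripk1, which bind the death domain of TNF receptor 1, had log2 fold changes of 0.02 and -0.03 (edgeR adjusted p = 0.929 and 0.894).

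In the shedding list 2 of 5 genes were higher and 0 lower (median log2 fold change 0.01). Timp3, the tissue inhibitor of ADAM17, measured 1.17, 0.696, 0.838 and 0.725 CPM in the control replicates and 1.96, 1.67, 2.13 and 2.24 CPM in the stress replicates. It rose by 1.22 on the log2 scale (edgeR adjusted p = 0.00975), and it passed 0.05 with any 1 sample left out (at most 0.0421), but of these only the fit without control replicate 1 kept it below the study's 0.01. Adam10, a related sheddase, rose by 0.39 on the log2 scale (adjusted p = 0.0243), and did not pass without control replicate 1, 2 or 3 (adjusted p up to 0.0831) or under the replicate block (0.0599). Rhbdf2, the carrier that brings ADAM17 to the surface of leukocytes, had a log2 fold change of -0.01 (adjusted p = 0.951).

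Among 9 regulators that bind Tnf mRNA, 1 was lower and 0 higher (median log2 fold change -0.11). That gene was Tia1, a translational silencer, with a log2 fold change of -0.49 (edgeR adjusted p = 0.0154, and 0.0537 without control replicate 3). Of 23 TNF-inducible genes 17 were tested, with 5 higher and 0 lower (median log2 fold change 0.04). Junb rose, with means of 25.9 ± 2.81 CPM in control and 42.7 ± 4.83 CPM in stress (± SD of 4 samples, log2 change 0.72, edgeR adjusted p = 0.00206), and Il1b, Tnfaip2 and Csf1 by 1.20, 1.04 and 0.77 on the log2 scale (adjusted p = 0.015, 0.0212 and 0.0322). Without stress replicate 3 Il1b and Tnfaip2 did not pass (adjusted p = 0.0522 and 0.0664), nor did they without the filter on low counts (0.0827 and 0.088), nor did Tnfaip2 without stress replicate 4 (0.0543) or Csf1 without control replicate 2 or 3 or stress replicate 2 or 4 (up to 0.104). The inhibitors of the pathway that TNF induces, Nfkbia and Tnfaip3, had log2 fold changes of -0.06 and -0.21 (edgeR adjusted p = 0.797 and 0.287). By total counts alone 0 of the 86 genes were higher and 47 lower, beside 52 and 5811 of all 11718 tested genes (edgeR adjusted p below 0.05). On that scale Junb, Birc2, Otulin, Adam10 and Relt changed sign. In the same libraries the summed neutrophil, classical monocyte, platelet and dendritic cell markers were higher in every stress sample than in any control sample, and the B cell markers lower, and their part in these changes was not tested. The dendritic cell markers ran from 4.12 to 5.36 CPM in control and from 7.23 to 9.41 CPM in stress (4 of 5 higher, 2 past).

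**Figure D5:**
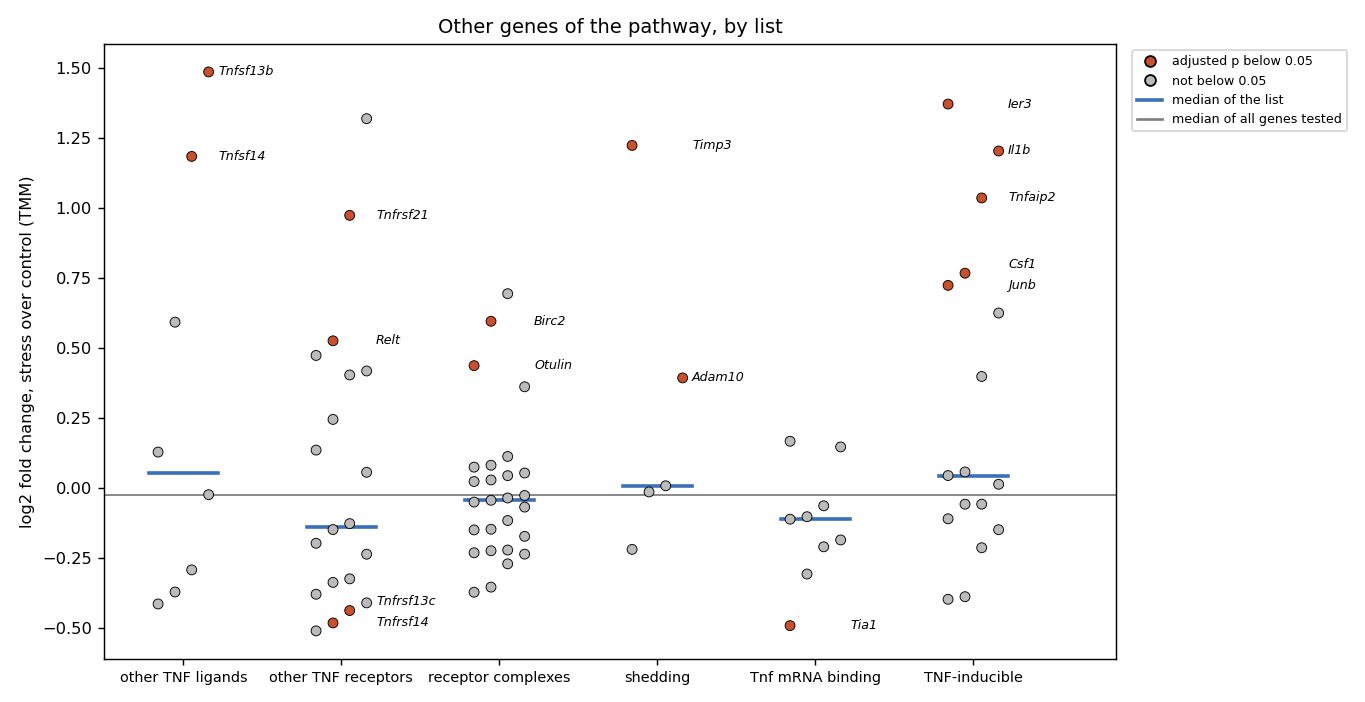
Log2 fold change of stress over control (TMM scale) for the tested genes of the 6 lists, with filled red points where the adjusted p is below 0.05, a blue bar at the median of each list and a grey line at the median of all tested genes. The list medians lie between -0.14 and 0.05, and the named genes are the 13 higher and 3 lower ones.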

How the data were processed

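Whole-blood RNA of 4 control and 4 stress mice was measured, 1 library per sample. The deposited table holds raw read counts, 1 row per gene symbol. Per the labels, reads were aligned to mm10 with HISAT2 and counted with featureCounts, with versions, annotation and strand setting not given in the sources used here. Coordinates and exon lengths come from GENCODE M21 (GRCm38, the same assembly as mm10), and all 9 members were matched by symbol to it and to the RefSeq promoter table.

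Genes were kept where 4 or more samples reached 10 counts, and fitted with edgeR 4.0.16 in R 4.3.3 (TMM, robust quasi-likelihood test, Benjamini-Hochberg over 11718 genes). In place of DESeq2, the tool of the study, edgeR was the main test. Alternatives were DESeq2 1.42.0, limma-voom (limma 3.58.1), other normalizations and filters, a block for the replicate number, and fits lacking 1 sample. On data simulated for this comparison from 11552 tested genes, 185 of the 195 tested genes given a log2 change of 2 were recovered, with 2 false calls. The largest member change was 1.21 (Ltbr), so this recovery does not tell how often changes of the members' size would be found. Ratios were tested with the exact permutation test. The edgeR p-values set the difference between groups against the spread between samples within a group. The permutation p-values place it among the 70 assignments of samples. Both rest on these samples alone.

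Named were all members, up to 4 genes past an adjusted p of 0.05 per list and direction, and 3 nearest profiles for the most abundant ligand, receptor and enzyme or adaptor, of which 1 is not reported here. Tradd, Ripk1, Rhbdf2, Nfkbia, Tnfaip3, Scnn1a and Iah1 were named outside this rule, after their values were seen. The members, lists and motifs were chosen with earlier results of these data known.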

Additional observations from a re-analysis of the deposited data

Results flagged for a closer look

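Of 82 groups of 4 values examined for a sample far from the others, 5 were flagged, and chance flags about 1 group in 20. Each value is given without an explanation. The Ltb to Ltbr log2 ratio of control replicate 1 was 5.02, below the other control samples (up to 5.91). Tnfrsf13c in control replicate 4 was 16.9 CPM, where the highest control sample was 23.6 CPM. Ier3 was 0.531 CPM in stress replicate 3, where the highest stress sample was 1.63 CPM. With all samples its edgeR adjusted p was 0.0463 (log2 fold change 1.37), and it passed 0.05 in 2 of 8 fits with 1 sample left out, without control replicate 1 or stress replicate 3, and missed it in the other 6 (up to 0.114) and under the replicate block (0.0932). The summed NK cell markers of stress replicate 3 were 127 CPM, against a stress median of 62.5 CPM. The summed neutrophil markers of stress replicate 4 were 888 CPM, against a stress median of 639 CPM.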

How the results depend on the processing

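Scaling by total counts alone moved most results. It left 0 members called higher, 0 higher and 6 lower at an adjusted p of 0.05, and 0 genes of the 6 lists higher, 47 lower, 0 called higher and 3 called lower. Over all 11718 tested genes it gave 52 higher and 5811 lower at that adjusted p, with 14 called higher and 729 called lower. The log2 fold changes of Ltb (-0.78) and Tnfrsf1b (-0.37) reversed, as did those of Relt (-0.21), Birc2 (-0.20), Otulin (-0.38), Adam10 (-0.38) and Junb (-0.032). The log2 ratios of summed markers became -1.25 (B cell), -0.84 (T cell), -0.94 (NK cell), 0.54 (neutrophil), 0.57 (classical monocyte), -0.77 (non-classical monocyte), 0.061 (dendritic cell), -0.48 (eosinophil and basophil), 0.19 (platelet) and 0.22 (red cell), from -0.44, -0.02, -0.06, 1.21, 1.32, -0.05, 0.83, 0.31, 0.96 and 1.06 with TMM. The median over all tested genes was -0.82 in this scaling.

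In the other 8 edgeR, DESeq2 and limma-voom settings 2 members stayed higher and 0 lower at an adjusted p of 0.05, with Tnfrsf1a at 0.85 to 0.87 and Ltbr at 1.20 to 1.22 on the log2 scale. Tnf had no value with the filter of 10 counts in every sample. DESeq2 called 4 genes of the lists higher and the upper quartile scaling 1, against 2. Leaving out 1 sample gave 0 to 1 member called higher, 7 to 13 list genes higher, 0 to 4 lower and 1 to 3 called higher. It gave log2 fold changes of -0.0094 to 0.15 for Ltb and -0.12 to 0.00077 for Adam17, and differences in log2 ratio of -1.37 to -0.98 (Ltb to Ltbr), 0.32 to 0.44 (Ltb to lymphocyte markers) and -0.48 to -0.32 (Tnfrsf1a to myeloid markers). The cause was not tested. Among the 9 members Tnf had the fewest reads, 8 to 72 per library.

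Samples of the same number did not deviate together (correlations of 0.06, 0.00044, -0.04 and -0.16), so the numbers were not taken as pairs. With the replicate block 2 members stayed higher and 0 lower, 10 list genes were higher and 2 lower.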
